A study of Mus musculus with 5 samples.

Results

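The 7 cyclin-dependent kinase inhibitor genes of the mouse were followed through 4 lists of chromatin regions from striatal neurons. They are the 4 Ink4 genes, Cdkn2a, Cdkn2b, Cdkn2c and Cdkn2d, and the 3 Cip/Kip genes, Cdkn1a, Cdkn1b and Cdkn1c. They were taken by exact gene symbol from the 21031 protein-coding genes used as the background. The set was chosen with earlier results of these data known. All 7 were found in at least 1 list, and genes whose symbols only begin alike, such as Cdkn3 and Cdkn2aip, were left out. The chromatin came from nuclei of the striatum of C57BL/6 mice aged 8 weeks, with no genotype, treatment or control group, and the 5 libraries were 4 immunoprecipitations (H3K4me3, H3K27me3, H3K27ac and RNA polymerase II, written Pol II) and 1 input. The labels call the cells medium spiny neurons, but the nuclei were sorted on NeuN, a protein of most neurons, so other striatal neurons are not removed by the sort. Whether nuclei of several animals were pooled is not given in the sources used here. The input entered only through the authors' lists, which give regions over input within 3 kb of a transcription start, per their names. Each antibody had 1 library, so no value has a replicate error, no test across samples was possible, and read depth is unknown.

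Cyclin-dependent kinase inhibitors stop the cell cycle by binding the kinases that drive it. Ink4 proteins bind Cdk4 and Cdk6 and keep D-type cyclins from activating them, whereas Cip/Kip proteins bind a wider range of cyclin and kinase complexes, Cdk2 with cyclins E and A among them. Both lead to the retinoblastoma family of pocket proteins, which hold E2f factors inactive while they are not phosphorylated. Adult neurons have left the cell cycle for good, and in mice the products of Cdkn1b and Cdkn2d are known to act together in keeping them out of it. Of the 4 readouts, H3K4me3 marks promoters, H3K27ac marks active promoters and enhancers, Pol II is the transcribing enzyme, and H3K27me3 is the mark of Polycomb repression.

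The promoter sequences of 6 of the genes are shown because CpG content differed between genes with different combinations of marks, and because the members differ in it. They are RefSeq windows of 300 bases on build GRCm38.p6, from 250 bases before to 50 after a start, written 5′ to 3′ along the gene with each CpG in capitals. For genes with several starts the window richest in CpG is given, and for Cdkn2a both are given, since its starts lead to different proteins, p19Arf from the upstream one and p16Ink4a from the downstream one. The region lists are on build mm9, so the window positions are not those of the regions. Cdkn1c had no window in the table used.
Cdkn2a, upstream start (chr4:89294570-89294869, minus strand, 45 CpG): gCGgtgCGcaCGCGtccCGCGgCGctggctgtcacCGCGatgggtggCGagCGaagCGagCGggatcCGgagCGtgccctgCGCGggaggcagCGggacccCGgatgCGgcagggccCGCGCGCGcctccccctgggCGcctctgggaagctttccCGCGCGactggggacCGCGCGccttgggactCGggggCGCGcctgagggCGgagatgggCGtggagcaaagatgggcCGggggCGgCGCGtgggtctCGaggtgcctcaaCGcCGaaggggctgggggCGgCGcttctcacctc
Cdkn2a, downstream start (chr4:89282143-89282442, minus strand, 12 CpG): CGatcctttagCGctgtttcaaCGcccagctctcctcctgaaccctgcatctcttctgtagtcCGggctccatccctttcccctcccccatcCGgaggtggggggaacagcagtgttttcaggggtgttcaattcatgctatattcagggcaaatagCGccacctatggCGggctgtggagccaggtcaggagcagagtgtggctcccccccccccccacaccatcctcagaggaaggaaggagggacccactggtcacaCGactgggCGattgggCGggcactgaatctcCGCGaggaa
Cdkn2b (chr4:89310983-89311282, minus strand, 18 CpG): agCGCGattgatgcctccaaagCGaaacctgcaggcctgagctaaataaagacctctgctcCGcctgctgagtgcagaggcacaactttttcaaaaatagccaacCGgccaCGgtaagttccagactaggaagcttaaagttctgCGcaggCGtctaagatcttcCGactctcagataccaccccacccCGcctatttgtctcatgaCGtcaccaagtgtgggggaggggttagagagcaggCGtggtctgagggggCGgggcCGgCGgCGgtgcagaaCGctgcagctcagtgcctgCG
Cdkn2c, upstream start (chr4:109666707-109667006, minus strand, 33 CpG): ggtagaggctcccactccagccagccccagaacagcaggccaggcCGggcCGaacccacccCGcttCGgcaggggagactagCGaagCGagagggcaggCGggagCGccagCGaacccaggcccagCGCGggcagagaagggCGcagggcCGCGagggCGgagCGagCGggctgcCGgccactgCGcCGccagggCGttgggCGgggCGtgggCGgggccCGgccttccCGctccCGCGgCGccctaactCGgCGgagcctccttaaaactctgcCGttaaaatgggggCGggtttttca
Cdkn2d (chr9:21291160-21291459, minus strand, 22 CpG): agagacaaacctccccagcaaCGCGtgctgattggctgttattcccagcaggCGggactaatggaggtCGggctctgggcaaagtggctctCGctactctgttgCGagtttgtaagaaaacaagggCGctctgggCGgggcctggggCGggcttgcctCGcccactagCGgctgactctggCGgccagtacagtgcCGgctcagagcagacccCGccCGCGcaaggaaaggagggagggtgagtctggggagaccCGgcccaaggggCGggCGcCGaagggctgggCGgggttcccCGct
Cdkn1a, downstream start (chr17:29093519-29093818, plus strand, 23 CpG): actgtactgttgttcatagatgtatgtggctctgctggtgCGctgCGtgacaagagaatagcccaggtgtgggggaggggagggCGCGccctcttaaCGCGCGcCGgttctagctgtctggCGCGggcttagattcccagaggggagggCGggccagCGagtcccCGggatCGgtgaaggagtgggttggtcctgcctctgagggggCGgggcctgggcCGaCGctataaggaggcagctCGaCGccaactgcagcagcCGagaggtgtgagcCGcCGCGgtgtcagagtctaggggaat
Cdkn1b (chr6:134920151-134920450, plus strand, 30 CpG): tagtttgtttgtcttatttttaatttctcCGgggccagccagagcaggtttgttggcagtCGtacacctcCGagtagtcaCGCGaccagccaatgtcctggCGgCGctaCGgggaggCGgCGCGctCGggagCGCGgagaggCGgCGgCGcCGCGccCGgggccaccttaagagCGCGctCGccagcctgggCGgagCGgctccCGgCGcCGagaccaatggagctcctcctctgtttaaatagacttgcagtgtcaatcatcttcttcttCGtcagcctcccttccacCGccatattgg

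The first question was which of the 4 antibodies had a region at each gene, and whether the families differed. H3K4me3 was listed at all 7 genes, 4 of 4 Ink4 and 3 of 3 Cip/Kip, where 68.4% of all coding genes had such a region. H3K27me3 was listed at 3 of 4 Ink4 genes and at 2 of 3 Cip/Kip genes, against 42.5% of coding genes. The counts of the families lay further apart for the active marks. H3K27ac was listed at 1 of 4 Ink4 genes and at 2 of 3 Cip/Kip genes, with 51.5% of coding genes as background. Pol II was listed at none of the 4 Ink4 genes and at 2 of 3 Cip/Kip genes, with 41.7% as background. The Cip/Kip genes with both active marks were Cdkn1a and Cdkn1b, and Cdkn1c had neither. Coding genes found in no list count as unlisted in these backgrounds and lower them. With all listed symbols as the denominator instead, the H3K4me3 background was 78.3% and that of Pol II 47.6%. By that count H3K27ac stood at 58.6% and H3K27me3 at 49.3%. Each family's share stayed on the same side of the background. Genes of a family are not replicates, and Cdkn2a and Cdkn2b share their regions, so these counts describe 7 genes and were not tested.

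**Figure D1:**
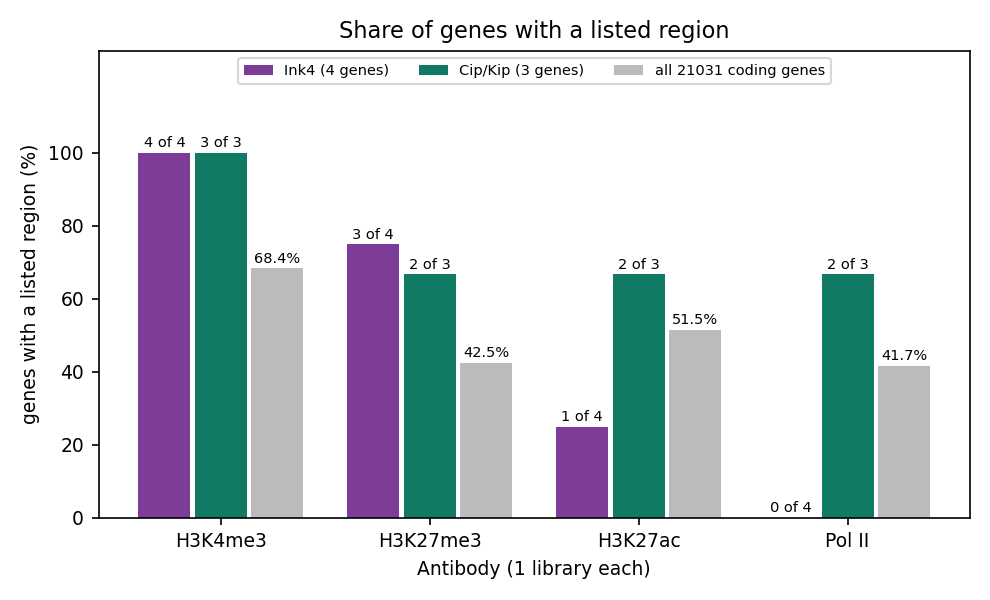
Share of genes with a listed region (percent, vertical axis) for each antibody, with bars for the 4 Ink4 genes, the 3 Cip/Kip genes and all 21031 coding genes and the counts printed above the bars. H3K4me3 reaches 100% in both families, while Pol II is at 0 of 4 Ink4 genes and 2 of 3 Cip/Kip genes.

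The 7 genes fell into 5 combinations of lists. Cdkn2a, Cdkn2b and Cdkn1c had H3K4me3 with H3K27me3 and nothing else, a combination held by 13.4% of coding genes. Cdkn2c had H3K4me3, H3K27me3 and H3K27ac without Pol II, as did 4.40% of coding genes. Cdkn2d had H3K4me3 alone, as did 2.68%. Cdkn1a had H3K4me3, H3K27ac and Pol II without H3K27me3, the commonest combination, found at 34.8% of coding genes. Cdkn1b had all 4, as did 5.93%. The combination of H3K4me3 with H3K27me3 alone was therefore found in both families, and both members with Pol II were Cip/Kip genes. With a mixture of nuclei, marks on the same chromosome and marks on different cells or alleles cannot be told apart.

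Each list carries the authors' score of a region over input, whose scale is not given in the sources used here, so it was used only to rank genes within 1 list. A percentile is the share of coding genes of that list with the same or a lower score. For H3K4me3 the order was Cdkn1b (10.7), Cdkn1a (9.55), Cdkn2c (9.02), Cdkn2a with Cdkn2b (8.02), Cdkn1c (4.07) and Cdkn2d (2.27). Cdkn1b stood at percentile 89.3 and Cdkn2d at percentile 2.87 of a list whose scores ran from 2.0 to 18.0. For H3K27me3 the order was Cdkn2a with Cdkn2b (10.2, percentile 95.4), Cdkn1c (9.88, percentile 94.7), Cdkn2c (7.76, percentile 88.8) and Cdkn1b (4.26, percentile 62.6). The H3K27ac scores were 6.32 at Cdkn1b (percentile 82.5), 3.95 at Cdkn1a (percentile 47.0) and 2.27 at Cdkn2c (percentile 5.99). Pol II scored 3.33 at Cdkn1b (percentile 72.8) and 2.52 at Cdkn1a (percentile 32.7). Cdkn1b thus led the members in H3K4me3, H3K27ac and Pol II. With no replicate library, it is not known which neighbours in these orders would keep their places.

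**Figure D2:**
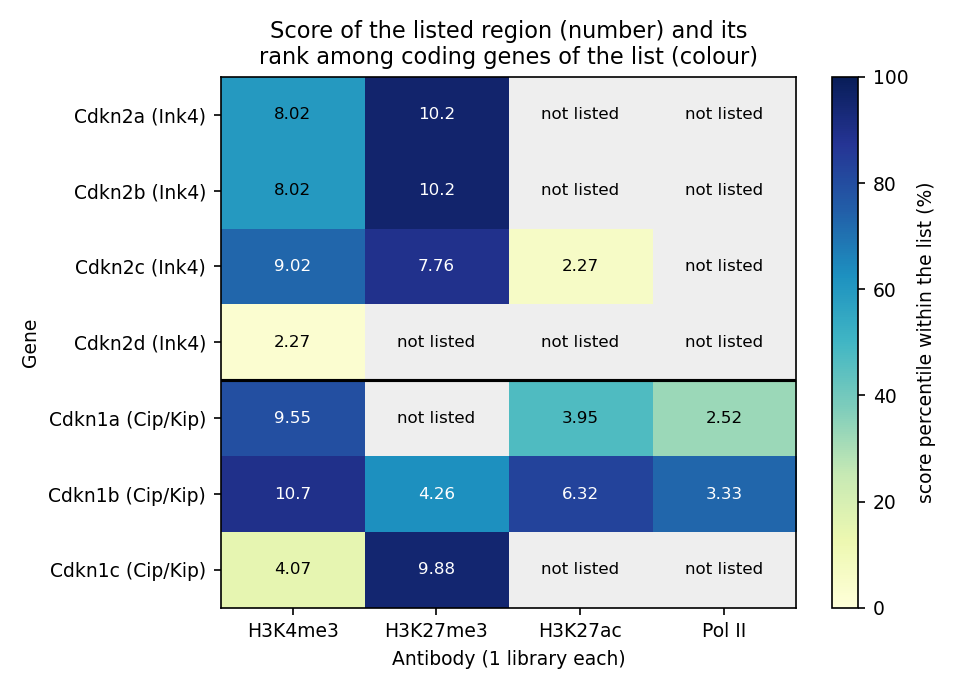
Scores of the listed regions (numbers) for the 7 genes (rows, Ink4 above Cip/Kip) and the 4 antibodies (columns), coloured by score percentile among coding genes of the same list. Dark H3K27me3 cells at Cdkn2a, Cdkn2b, Cdkn2c and Cdkn1c (percentiles 88.8 to 95.4) stand beside absent or low H3K27ac, and Cdkn1b has a value in every column.

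Cdkn2a and Cdkn2b, which lie next to each other on chromosome 4, were covered by the same regions. Cdkn2a encodes p16Ink4a and, in another reading frame, p19Arf, which stabilises p53 by binding Mdm2, and Cdkn2b encodes p15Ink4b, an effector of TGF-beta growth arrest. Their H3K27me3 region ran over 56.3 kb (mm9, chr4:88908501-88964800, minus strand genes), and was region 257 of 8219 by score. The H3K4me3 region inside it was 42.6 kb wide (chr4:88916801-88959400) and was listed for both transcripts of Cdkn2a and for the transcript of Cdkn2b. It ranked 33 of 13142 H3K4me3 regions by width, at percentile 99.4 of coding genes, whereas its score was near the middle of the list (percentile 59.7). From its centre H3K27me3 reached 29.6 kb downstream and 26.7 kb upstream, and H3K4me3 21.3 kb each way. No other gene symbol was listed with either region.

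An H3K4me3 region that wide was rare, and the other antibodies at such regions were therefore counted, with a threshold set after the Cdkn2a and Cdkn2b region had been seen. Of 38 H3K4me3 regions of 40 kb or more, 19 met an H3K27me3 region by 1 bp or more, 22 met an H3K27ac region and 22 a Pol II region. The region of Cdkn2a and Cdkn2b was 1 of 14 (36.8%) that met H3K27me3 and neither of the active marks. Whole enclosure of H3K4me3 was counted over regions of any width, and not for the wide regions separately. Among the 5091 coding genes with both marks, 46.6% had an H3K4me3 region lying wholly inside an H3K27me3 region, as Cdkn2a, Cdkn2b and Cdkn1c did.

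Cdkn1c had the widest H3K27me3 region of the 7 genes. It encodes p57Kip2, and in mice it is an imprinted gene expressed from the maternal copy, which these files do not separate from the paternal one. The region spanned 119 kb on chromosome 7 (mm9, chr7:150578801-150698100), was region 289 of 8219 by score and 212 by width, and reached percentile 95.5 of coding genes in width. It was also listed for Phlda2 and Slc22a18, neighbours that belong to the same imprinted cluster. Within it lay a 10.8 kb H3K4me3 region of Cdkn1c (chr7:150643201-150654000), wide for the list (percentile 84.1) but low in score (percentile 14.6). Phlda2 had an H3K4me3 region of its own, 11.2 kb wide with a score of 3.71, while Slc22a18 had none listed. H3K27ac and Pol II were listed at neither of these neighbours nor at Cdkn1c. The H3K27me3 region was 11 times as wide as the H3K4me3 region at Cdkn1c, 5.67 times at Cdkn2c and 1.32 times at Cdkn2a and Cdkn2b.

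Cdkn2c, which encodes p18Ink4c, was the 1 Ink4 gene with H3K27ac. Its H3K27me3 region was 36.3 kb wide (mm9, chr4:109305301-109341600, minus strand gene) and lay mostly on the downstream side. Measured from the centre of the H3K4me3 region, H3K27me3 reached 33.7 kb in the direction of transcription and 2.60 kb against it. The H3K4me3 region of 6.4 kb (chr4:109335801-109342200) shared 5.80 kb with it, or 90.6% of its own width. The H3K27ac region of 4.30 kb (chr4:109337201-109341500) lay wholly inside the H3K27me3 region, as it did at 14.0% of the 2181 genes with both marks. Both its width (percentile 5.29) and its score (percentile 5.99) were near the bottom of the H3K27ac list. Faf1, the next gene on the other strand, was chosen for mention after its values were seen. Its H3K4me3 region began 4.30 kb from that of Cdkn2c, scored 11.8, and came with H3K27ac (6.59) and Pol II (3.31) and no listed H3K27me3.

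Cdkn2d, which encodes p19Ink4d, had the least of the 7 genes. A single H3K4me3 region of 4.90 kb (mm9, chr9:21089201-21094100) was listed, with a score of 2.27 that placed it 12603 of 13142 regions. The same region was listed for Kri1, on the same strand, so the lists do not tell which start it belongs to. Neither gene had H3K27me3, H3K27ac or Pol II. The next gene with all 4 antibodies, Atg4d, had H3K4me3 with a score of 7.35 and lay 15.3 kb away, so a neighbour outside the shared region had every mark that Cdkn2d lacked. The lists hold only regions that scored 2.0 or more, were at least 2500 bp wide and, per their names, lay within 3 kb of a start. For a gene with no line in a list, the files do not show which of these limits was missed, or by how much. For a gene in no list, the files also do not show whether its start was among those the authors used. Each of the 7 genes had a line in the H3K4me3 list, so a start of each was used there.

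Cdkn1a and Cdkn1b had nested active regions. Cdkn1a encodes p21Cip1, the classical target of p53 in growth arrest. At Cdkn1a, a Pol II region of 3.5 kb (mm9, chr17:29229801-29233300) lay inside an H3K27ac region of 5.60 kb (chr17:29228901-29234500), itself inside an H3K4me3 region of 6.20 kb (chr17:29228501-29234700). The width of that Pol II region was at percentile 3.28 of its list, while the H3K27ac region was at percentile 66.4. From the centre of the H3K4me3 region, Pol II reached 1.80 kb upstream and 1.70 kb downstream, and H3K4me3 3.10 kb each way. The regions were listed for both Cdkn1a transcripts.

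At Cdkn1b, which encodes p27Kip1, the active regions were nested in the same way and H3K27me3 lay to one side. Pol II covered 5.0 kb (mm9, chr6:134868001-134873000), H3K27ac 6.00 kb (chr6:134867601-134873600) and H3K4me3 9.20 kb (chr6:134864801-134874000). The H3K27me3 region of 7.30 kb (chr6:134862001-134869300) covered the upstream side, ending just short of the centre of the H3K4me3 region. It shared 4.50 kb with H3K4me3, 1.70 kb with H3K27ac and 1.30 kb with Pol II. The overlap with H3K27ac made up 28.3% of the H3K27ac region at Cdkn1b, against 100% at Cdkn2c. Regions of H3K27ac and H3K27me3 met by 1 bp or more at 79.5% of the 2181 genes with both. Cdkn1b was the 1 member whose H3K27me3 region was narrower than its H3K4me3 region, as at 18.0% of the 5091 genes with both marks, and its H3K27me3 width stood at percentile 23.3. Any contact between H3K4me3 and H3K27me3 was the rule, found at 94.2% of those genes and at all 5 members with both.

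**Figure D3:**
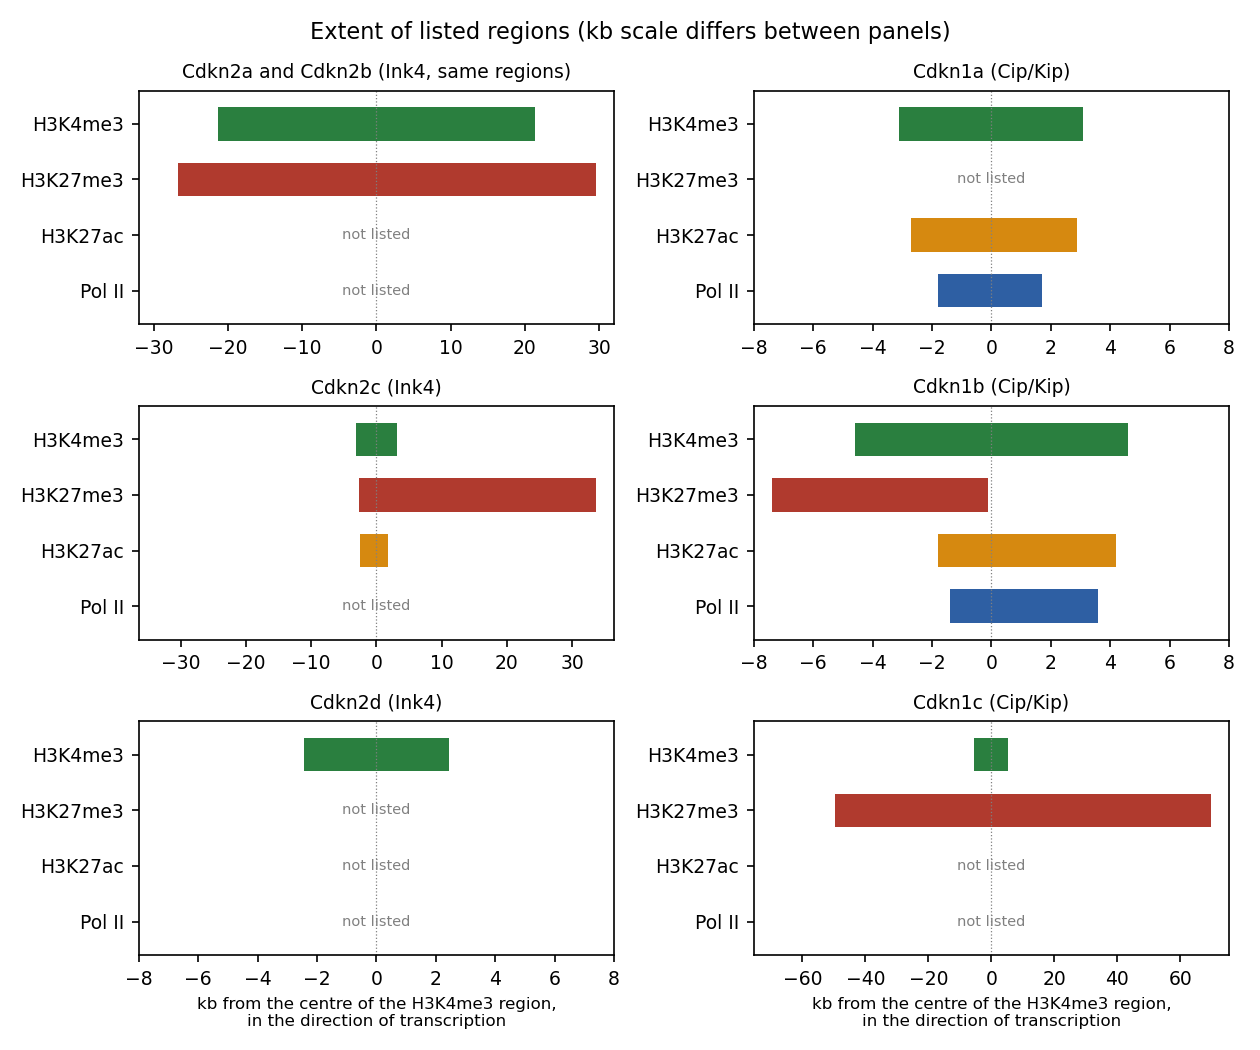
Extent of the listed regions at each gene, as bars per antibody (rows, from H3K4me3 at the top to Pol II), in kb from the centre of the gene's H3K4me3 region with transcription running to the right; Ink4 genes are in the left column and Cip/Kip genes in the right, and the kb scale differs between panels. H3K27me3 encloses H3K4me3 at Cdkn2a with Cdkn2b and at Cdkn1c, extends 33.7 kb downstream at Cdkn2c and lies upstream at Cdkn1b.

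**Figure D4:**
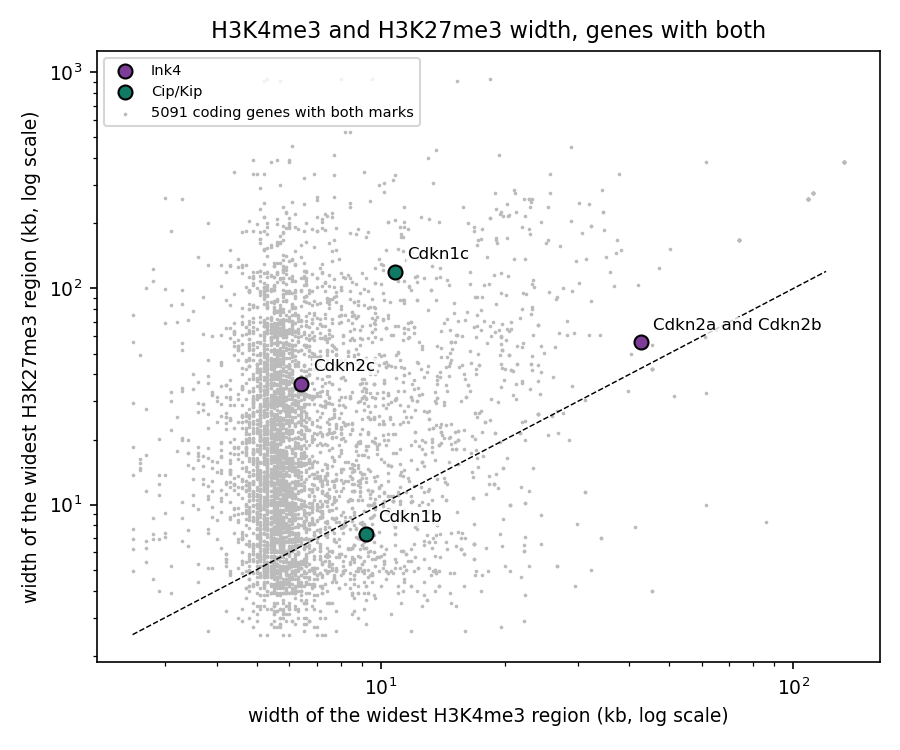
Width of the widest H3K27me3 region (kb, vertical log axis) against that of the widest H3K4me3 region (kb, horizontal log axis) for the 5091 coding genes with both (grey) and the 5 members with both (coloured by family); the dashed line marks equal widths. Cdkn2a and Cdkn2b lie far to the right at 42.6 kb of H3K4me3, Cdkn1c lies high at 119 kb of H3K27me3, and Cdkn1b lies below the line.

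Lists cut at higher scores held fewer members, except that of H3K27me3. In the upper 50% of regions by score, H3K27me3 still had all of its 5 members, with 25.0% of coding genes as background. H3K4me3 had 5, all but Cdkn2d and Cdkn1c, with 37.0% as background. H3K27ac and Pol II each had Cdkn1b alone, with 26.1% and 21.2%. At a score of at least 3, H3K27me3 kept the same 5 genes (27.9% of coding genes), H3K4me3 lost Cdkn2d (62.9%), H3K27ac lost Cdkn2c (39.7%) and Pol II lost Cdkn1a (16.7%). With each list limited to 7799 regions, the length of the shortest, 5 members stayed in the H3K4me3 list (43.4%) and 5 in the H3K27me3 list (41.0%), with Cdkn1a and Cdkn1b in those of H3K27ac (41.6%) and Pol II (41.7%). In each of these 3 stricter settings no Ink4 gene had H3K27ac. No Ink4 gene had Pol II in the uncut list, so a cut could not add one. The limit of 7799 regions is the length of the Pol II list itself, which was left whole.

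The promoter windows differed in CpG content without following the families. Cdkn2a had the highest count, 45 CpG at its upstream start (percentile 97.8 of 20488 windows of coding genes, whose median was 14), and 12 at its downstream start (percentile 47.6). Cdkn2b had 18, Cdkn2c had 33 at its upstream start and 8 at its downstream start, and Cdkn2d had 22. Among Cip/Kip genes, Cdkn1b had 30 (percentile 85.6), and Cdkn1a had 23 at its downstream start and 2 at its upstream start. The range was therefore 8 to 45 in Ink4 windows and 2 to 30 in the windows of Cdkn1a and Cdkn1b. Cdkn1c had no window, so the Cip/Kip family is not covered in full. Taking each gene's richest window, the median count was 13.5 in genes with H3K4me3 and H3K27me3 alone, where Cdkn2a and Cdkn2b belong, and 25 in genes with H3K4me3, H3K27ac and Pol II, where Cdkn1a belongs. The median was 3.0 in genes with H3K27me3 alone, and also 3.0 in genes with no listed region. Cdkn2d, at 22 CpG, lay above the upper quartile of 20.5 of genes with H3K4me3 alone. For genes with H3K4me3 and H3K27me3 alone the upper quartile was 22.0, which Cdkn2a exceeded with 45 and Cdkn2b, with 18, did not.

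Motifs were searched on both strands of the same windows. The GC box, GGGCGG, was found in 47.6% of all windows, and in every printed window of the 6 genes, with 5 matches at Cdkn2d and 1 to 4 in the others. A half-site of p53, by its consensus, was found in 7.32% of windows. The upstream Cdkn1a window (GRCm38.p6, chr17:29090729-29091028) held 2, GAACATGTCT and GGACTAGCTT, and the Cdkn2d window held 1, GGGCTTGCCT. CACGTG, the E-box, was in 8.03% of windows and in the downstream Cdkn2c window. TATAAA (12.4% of windows), GTAAACA of Foxo factors (2.90%) and TTTGGCG of E2f factors (1.87%) had no match in the 9 member windows. A match is a description of the letters and does not show binding.

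**Figure D5:**
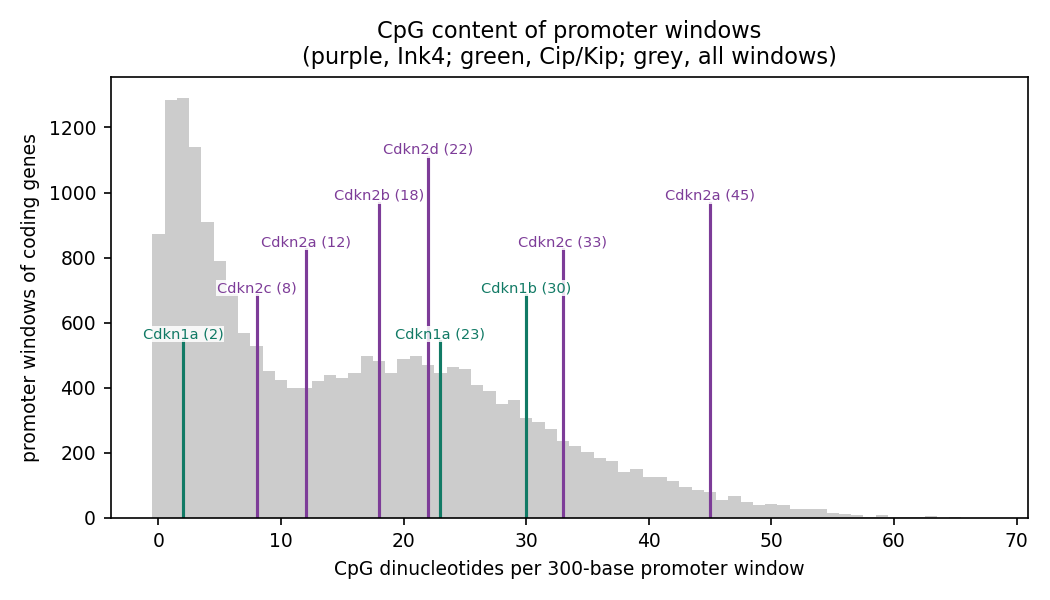
Number of promoter windows of coding genes (vertical axis) by CpG count per 300-base window (horizontal axis), with the 9 windows of 6 members as coloured lines labelled with their counts (purple, Ink4; green, Cip/Kip). Members range from 2 at the upstream Cdkn1a start to 45 at the upstream Cdkn2a start, on both sides of the median of 14.

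Genes of the same pathway, those the inhibitors act on and those that act on the inhibitors, were read from lists of 49 genes by role. H3K4me3 was listed at 48 of the 49 (68.4% of all coding genes) and H3K27me3 at 20, a share close to the background of 42.5%. H3K27ac was listed at 36 of the 49 (background 51.5%) and Pol II at 33 (background 41.7%), and 11 genes of each count were the Polycomb-related ones described last. H3K27me3 with neither H3K27ac nor Pol II was listed at 3 of the 7 inhibitor genes and at 10 of the 49, with 31.6% of all coding genes as background. Of the 4 kinases, the Ink4 target Cdk4 had H3K27ac (4.19) and Pol II (2.17) and no H3K27me3. The other Ink4 target, Cdk6, had H3K4me3 with a score of 11.1 and H3K27me3 (4.52) without either active mark, and so did Cdk2 (5.54) and Cdk1 (5.03), the kinases of S phase and mitosis. H3K27me3 was listed at 7 of 9 cyclin genes, of which Ccnd1 (8.96), Ccna1 (4.6) and Ccnb1 (2.01) had no active mark. H3K27ac was listed at 4 cyclin genes, led by Ccnd2 (6.28), Ccne2 (5.49) and Ccnd3 (2.80), of which Ccnd2 and Ccnd3 had H3K27me3 as well. The other one, Ccne1, had H3K27ac (2.70) and Pol II (2.10) beside an H3K27me3 region of 75.6 kb with a score of 8.11.

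Downstream, all 3 pocket protein genes had H3K27ac and Pol II, with H3K27ac scores of 6.22 at Rb1, 3.90 at Rbl1 and 3.29 at Rbl2, and Rbl1 also had H3K27me3. H3K27me3 was listed at 5 of 8 E2f genes, and E2f2 (7.27) and E2f8 (6.23) had it with no active mark. The highest H3K27ac scores were at E2f3 (5.74), E2f5 (4.24) and E2f6 (3.56), and E2f6 also had H3K27me3 (6.66). Of 6 genes for the turnover of inhibitors or cyclins, Cks1b had H3K27me3 (2.15) beside H3K4me3 (6.05) and neither active mark. The highest H3K27ac scores were at Cul1 (10.9), Fbxw7 (6.62) and Skp1a (5.31). These encode parts of SCF ubiquitin ligases, which mark p27Kip1 and cyclin E for destruction.

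Upstream, p53 and the Foxo factors activate Cdkn1a or Cdkn1b in other settings, and the p53 axis list also holds the p53 regulators Mdm2 and Mdm4. H3K27ac was listed at 4 of 5 p53 axis genes, highest at Mdm2 (6.49), Trp53 (5.29) and Mdm4 (4.01), and Trp63 had H3K27me3 (3.19) with no other region. Trp73 had the highest H3K27me3 score of the axis, 10.6 over 77.9 kb, beside H3K27ac (2.14) and Pol II (2.21). All 3 Foxo genes had H3K27ac, with scores of 10.8 at Foxo3, 9.28 at Foxo1 and 2.84 at Foxo4. The 11 Polycomb-related genes known to regulate Cdkn2a each carried Pol II, H3K27ac and H3K4me3, while 1 of them, Cbx8, had H3K27me3 (8.19). Bmi1, a repressor of Cdkn2a in mouse cells, led their H3K27ac scores with 7.81, before Ring1 (6.07) and Pcgf2 (5.98).

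Genes with the most similar pattern were named for each member by the distance between their score percentiles in the 4 lists, taking 0 where no region was listed and leaving out genes that share a region with the member. For Cdkn2a and Cdkn2b they were Cfap77 (distance 0.829 percentile points), Ttf1 (2.28) and Nfatc1 (3.04). Cdkn2c was nearest to Ltbp1 (4.68), Ocln (4.78) and Acap1 (6.17), and Cdkn2d to Aga (0.0278), Zxdb (0.0487) and Agtrap (0.0626). Cdkn1a was nearest to Fam91a1 (2.94), Trim41 (2.99) and Cdca4 (3.75). Cdkn1c was nearest to Pth2 (0.446), Lox (0.544) and Arhgap45 (0.754). Cdkn1b, the 1 member in all 4 lists, had the most distant nearest genes, Ube2ql1 (6.90), Krtcap2 (9.42) and Trim46 (9.42). All genes absent from a list take 0 there, so distances tend to be smaller for genes in fewer lists. The order of the members by distance is therefore not a trait of the genes. Krtcap2 and Trim46 had the same percentiles in all 4 lists, and similar genes that share a region with each other were not removed. With width percentiles in place of score, 0 of the 21 pairs of member and similar gene recurred. The likeness is over 4 libraries only and was not tested.

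The labelled cell type was read from marker genes in the same lists. For comparison, 51.5% of all coding genes had H3K27ac, 41.7% had Pol II and 42.5% had H3K27me3. All 5 neuronal and all 11 medium spiny neuron genes, from Rbfox3 to Drd1 and Drd2, had H3K27ac and Pol II. H3K27me3 was listed at none of the 5 neuronal genes and at 5 of the 11 medium spiny neuron genes, a share close to the background. Those 5 were Drd1 (3.77), Drd2 (4.53), Adora2a (5.89), Penk (4.58) and Tac1 (5.09). H3K27ac and Pol II were not listed at any of 5 astrocyte, 5 oligodendrocyte, 6 microglial or 5 endothelial and mural genes. Of 4 genes of dividing cells, none had Pol II and 1, Aurkb, had H3K27ac (3.19). H3K27me3 was listed at 3 of these 4 genes, at Aurkb (2.44) and, without either active mark, at Mki67 and Plk1.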

How the data were processed

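Chromatin immunoprecipitation with sequencing was done on sorted striatal neuronal nuclei with 4 antibodies, 1 library each, and 1 input library; groups were taken from the labelled antibody. The submitters' processing notes name build mm9, the aligner Bowtie (0.12.7) and the peak caller MACS (1.4), without saying what each did. The deposited lists pair each region with a RefSeq transcript, a gene symbol and a score, which is the authors' own value over input. The sources used here do not give its scale or how it was made. No score was below 2.0 and no region narrower than 2500 bp. Read depth is unknown, and differences in depth between libraries could change which genes each list holds.

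Lines of the 7 genes were found by symbol. The score was used to rank regions within a list. Between 99.3% and 99.8% of lines were matched by accession or symbol to RefSeq genes of GRCm38.p6, from which names and biotypes came, and 21031 protein-coding genes with a curated transcript served as background. Positions are mm9, counted from 1. A gene's score and width are those of its highest-scoring and its widest region. No p-value was computed, because there is 1 library per antibody. Stricter score limits, lists of equal length, matching by accession, families with genes left out and other definitions of width, score, overlap and background were tried. The members, gene lists and motifs were chosen with earlier results of these data known. Named beside the 7 members were genes sharing their regions, up to 3 genes of each role list by H3K27me3 score among those with neither active mark and up to 3 by H3K27ac score, and the 3 most similar genes per member; other names were chosen after their values were seen. The calculations were tested on simulated data with known answers. Python 3.11.15, numpy 2.4.6, pandas 2.3.3 and matplotlib 3.10.9 were used.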

Additional observations from a re-analysis of the deposited data

How the results depend on the processing

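Each antibody has 1 library, so the counts of members depend on the authors' lowest score. No paired analysis was possible because no antibody has a second library. In the upper 50% of regions by score, H3K27ac and Pol II were each listed at 1 member, 0 Ink4 and 1 Cip/Kip gene, and among the 49 other cell cycle genes H3K27ac was at 23 and Pol II at 14. A score of at least 3 left Pol II at 1 member, a Cip/Kip gene. H3K27ac was at 0 Ink4 genes at that score and in lists of equal length. Pol II stayed at 2 members in the latter, because its list was the shortest and was not cut. The share of Ink4 genes minus that of Cip/Kip genes was 0 percentage points in the H3K4me3 list, 8.33 in that of H3K27me3, -41.7 in that of H3K27ac and -66.7 in that of Pol II. For H3K4me3 it was 8.33 in the upper 50% and in lists of equal length, and -25.0 at a score of at least 3. The H3K27me3 difference turned to -25.0 without Cdkn1a and to -16.7 without both Cdkn2a and Cdkn2b, was 0 without Cdkn2a, Cdkn2b or Cdkn2c, 25.0 without Cdkn1b or Cdkn1c and 33.3 without Cdkn2d, so it gives no order of the families. The H3K27ac difference was -33.3 without Cdkn2a, Cdkn2b or Cdkn2d and in the upper 50%. It was -25.0 without Cdkn1a or Cdkn1b, -16.7 without both Cdkn2a and Cdkn2b, and -75.0 without Cdkn1c. It was -66.7 without Cdkn2c, at a score of at least 3 and in lists of equal length. With 1 of 4 Ink4 and 2 of 3 Cip/Kip genes listed, leaving out these genes could not turn its sign. The Pol II difference was -50.0 without Cdkn1a or Cdkn1b and -100 without Cdkn1c. It was -33.3 in the upper 50% and at a score of at least 3. With no Ink4 gene listed, it could not turn positive in any setting. Neither difference was therefore a test of the order of the families. The causes were not tested beyond what each setting leaves out. Matching by accession changed no count of members. Summed widths and the score of the widest region could not change a member value, because no member had more than 1 region in a list. Of 15 pairs of regions that met at a member, 13 shared 0.5 of the narrower one. With width percentiles in place of score, 0 of the 21 pairs of member and similar gene were the same.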
